A study of Homo sapiens with 6 samples.

Results

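Adhesion G protein-coupled receptors are surface proteins with a long extracellular part and a bundle of transmembrane helices. The 10 genes described here, Adgra1, Adgra2, Adgra3, Adgrb2, Adgrb3, Adgre5, Adgrg1, Adgrg6, Adgrl1 and Adgrl2, are the rows with those symbols among 38986 gene symbols. The set was chosen by the measured fold change of Adgra1, which was among the largest rises between the groups of this study. The values of that comparison are therefore given for the 10 genes as a description, with no p-value for any of them.

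The study holds 6 RNA-seq libraries, 3 from cells labelled as 293T with the genotype STAT6 overexpression and 3 labelled Mock with the genotype WT. Both groups are described as mCherry-positive cells, grown in DMEM with fetal bovine serum. 293T is a human embryonic kidney line, and STAT6 is a transcription factor of interleukin 4 signalling. The labels name no clone, number of cultures or time, so p-values measure only library-to-library spread, part or all of which may be technical.

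The labels and the files disagree, and this touches every result. The row symbols have mouse spelling, and Stat6 stood at 33.6 ± 1.53 CPM (SD, n = 3) in the libraries labelled STAT6 against 94.5 ± 1.49 CPM in those labelled Mock. CPM is the count per 1000000 of the TMM-scaled library total. Pigment cell markers (Tyr, Tyrp1, Dct, Pmel, Mlana, Mitf and Sox10) summed to 16705 to 16841 CPM in the libraries labelled STAT6 and 14404 to 14750 CPM in those labelled Mock, though not as one: Tyr stood at 29.1 against 303 CPM and Pmel was also lower (-0.06 on the log2 scale), 4 were higher, and Mlana was not past the threshold. Of 6 kidney epithelium markers, Epcam and Pax8 had 0 counts in all 6 libraries, Pax2, Krt8 and Krt18 had at most 2 in any, and Cdh1 was higher, with 141 counts against 45 (log2 fold change 1.92). Whether the files hold the cells and genotypes that the labels name was not tested. If they do not, the comparison is not the labelled one. Whether the groups were exchanged was not tested either, and every direction below would turn if they were. Directions follow the labels: where no group is named, "higher" is said of the STAT6-labelled libraries. Library totals ran from 19894773 to 29802693 counts.

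In most adhesion receptors the extracellular part is cut from the membrane part at a conserved domain, the pieces stay bound, and the freed end of the membrane part can act as a tethered agonist when a ligand on a neighbouring cell or in the matrix pulls on it. Many members signal through G12 and G13 proteins to the GTPase RhoA. In pigment cells Adgrg1, also called GPR56, is the best studied, as a receptor that restrains melanoma growth and spread in animal models.

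Of the 10 genes 7 passed the filter on low counts: Adgra1, Adgra2, Adgra3, Adgre5, Adgrg1, Adgrl1 and Adgrl2. Adgrg1, Adgra2 and Adgra1 were higher, Adgra3, Adgrl2 and Adgre5 were lower, and Adgrl1 overlapped between the groups. In the edgeR quasi-likelihood fit across all 12938 tested genes, 3 were past an adjusted p of 0.05 as higher (35.8% of all tested genes were), 3 as lower (36.8% were), and 1, Adgrl1, was not. That is 6 of 7 (85.7%), where 72.6% of all tested genes passed, and 6 of 7 did not overlap between groups, where 74.6% of all tested genes did not. Because this comparison chose the set, nothing is read from these shares. The median log2 fold change of the 7 genes was -0.14, against -0.00 over all tested genes. Only Adgra1 of the 7 changed at least 2-fold, as did 15.5% of all tested genes.

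**Figure D1:**
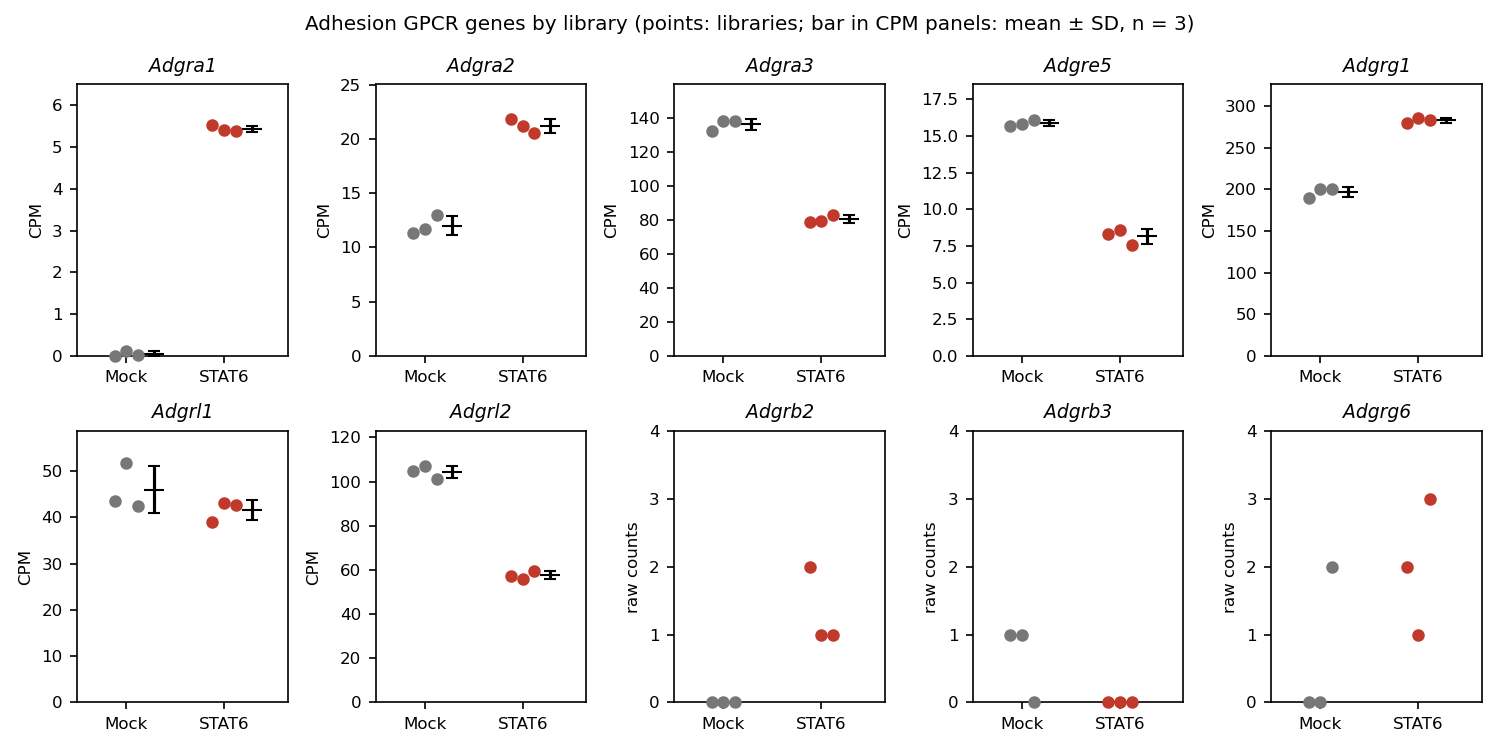
CPM (7 genes) or raw counts (Adgrb2, Adgrb3 and Adgrg6) on the y axis for each library labelled Mock (grey) and STAT6 (red), with the mean ± SD beside the points in the CPM panels. The groups are apart in 6 of the 7 CPM panels and overlap for Adgrl1, and no library has more than 3 counts of Adgrb2, Adgrb3 or Adgrg6.

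Adgra1, also called GPR123, is an orphan receptor known mainly from brain, with a short extracellular part that lacks the cleavage domain of its relatives. It had 128, 105 and 110 counts in the libraries labelled STAT6 and 0, 3 and 1 in those labelled Mock. On the CPM scale these are 5.53, 5.41 and 5.39 against 0, 0.129 and 0.0327. The gene was thus at a low and even level in one group and next to undetected in the other. It passed the low-count filter through the libraries labelled STAT6 alone, so that it had to differ. The summed counts, 343 against 4, gave a ratio of 105 after scaling to library size (exact 95% interval 40.5 to 386, for counting error only). The fitted log2 fold change was 6.57 (SE 0.34). It rests on few counts: without Mock replicate 2, which held 3 of the 4 counts, it was 7.82. Across the 3 libraries labelled STAT6 the coefficient of variation was 1.37%, less than the 9.35% that counting alone gives at this depth, so the SD understates the error.

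With the labels as given, Adgra1 ranked 31 of 12938 tested genes by log2 fold change from the largest rise, a rank that would count from the largest fall if the groups were exchanged. The named genes next to it in that order were Htra3 (6.63), a secreted protease, and Pdgfb (6.59), a growth factor chain, just above, and Lims2 (6.51), a focal adhesion adaptor, just below. These values lie within the SE of Adgra1, and Pdgfb had 191 counts against 2, a ratio of 117 (exact 95% interval 31.8 to 969), so the order among them is not resolved.

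The other members of the A group moved in opposite directions. Adgra2, or GPR124, is the receptor that with Reck lets brain endothelium respond to Wnt7a and Wnt7b. It stood at 21.8, 21.2 and 20.6 CPM in the libraries labelled STAT6 and at 11.3, 11.7 and 13.0 CPM in those labelled Mock. All 3 libraries of one group lay above all 3 of the other, with a log2 fold change of 0.81 (SE 0.07), or 1.76-fold. Adgra3, or GPR125, is a receptor tied to cell polarity and planar Wnt signalling. It stood at 79.0, 79.2 and 82.9 CPM against 132, 138 and 138 CPM. Its groups were apart in the other direction, with a log2 fold change of -0.76 (SE 0.04), so that the libraries labelled Mock were 1.70-fold higher.

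Adgrg1 binds collagen III and transglutaminase 2 outside the cell and sits in complexes with tetraspanins. Its levels were 279, 286 and 284 CPM in the libraries labelled STAT6 and 189.5, 200.1 and 200.5 CPM in those labelled Mock. The groups were apart, at 283 ± 3.32 against 197 ± 6.23 CPM (SD, n = 3), with a log2 fold change of 0.52 (SE 0.03), or 1.44-fold. The gene took 56.5% to 57.2% of the counts of the 10 genes in the libraries labelled STAT6 and 38.1% to 39.2% in those labelled Mock. These shares are of counts and are not corrected for transcript length.

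The summed level of the 10 genes overlapped between the groups, while its make-up differed. It was 490.4, 499 and 503 CPM in the libraries labelled STAT6 and 497, 525 and 511 CPM in those labelled Mock. The rise of Adgrg1 and the falls of Adgra3 and Adgrl2 were the larger parts of the difference in make-up, and Adgra1 added little to the sum.

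**Figure D2:**
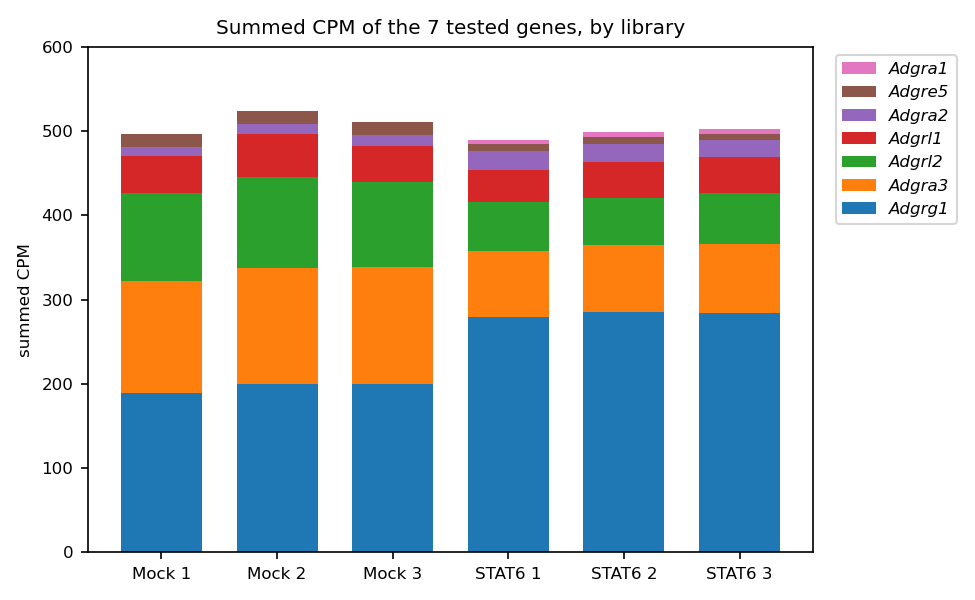
Stacked bars of CPM (y axis) of the 7 tested genes in each of the 6 libraries (x axis), 1 colour per gene. The bars have similar heights, between 490 and 525 CPM, and the Adgrg1 part is larger in the libraries labelled STAT6.

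Adgre5, or CD97, is found on leukocytes and many tumour cells and binds CD55, THY1 and integrins. It stood at 8.34, 8.55 and 7.55 CPM in the libraries labelled STAT6 against 15.7, 15.8 and 16.1 CPM. All libraries labelled Mock were higher, with a log2 fold change of -0.96 (SE 0.08), or 1.95-fold in favour of Mock. The 7 listed markers of macrophages and leukocytes summed to 3.72 to 4.59 CPM in the libraries labelled STAT6 and 1.60 to 1.91 CPM in those labelled Mock, and their part in the values of Adgre5 was not tested. Of the 3 that passed the filter, Cd68 (log2 fold change 1.86) and Lyz2 (1.34) were higher and made up most of the sum, and Cd14 was at -0.32 and not past the threshold. Cd68 had 13, 10 and 22 counts in the libraries labelled Mock, which alone would not have carried it past the filter. Its rise is therefore given as a description only. Of this list Adgre1 had 0 counts in all 6 libraries, and Ptprc, Itgam and Csf1r had at most 2 in any. In bulk libraries fewer cells that carry a transcript and less of it per cell cannot be told apart.

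Latrophilins, encoded by the Adgrl genes, bind teneurins and FLRT proteins on facing cells and are known best from synapses. Adgrl2 stood at 57.3, 55.9 and 59.6 CPM in the libraries labelled STAT6 and at 105, 107 and 101 CPM in those labelled Mock. The groups were far apart next to their spread, with a log2 fold change of -0.86 (SE 0.04), or 1.81-fold higher in Mock. Adgrl1 stood at 39.0, 43.1 and 42.6 CPM against 43.6, 51.7 and 42.5 CPM. Mock replicate 3 lay below 2 of the libraries labelled STAT6, and Mock replicate 2 lay above the rest, which gave the Mock group a coefficient of variation of 11.0% where counting alone gives 2.93%. The log2 fold change of Adgrl1 was -0.14 (SE 0.07) and ranged from -0.21 to -0.06 over 14 other ways of processing, of which 6 put it past the threshold.

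Adgrb2, Adgrb3 and Adgrg6 were next to undetected. Adgrb2 and Adgrb3 encode the brain-specific angiogenesis inhibitors BAI2 and BAI3, and Adgrg6, or GPR126, is needed for Schwann cells to myelinate. Adgrb2 had 2, 1 and 1 counts in the libraries labelled STAT6 and 0 in each labelled Mock, where 0 counts allow up to 0.0391 CPM over the group (a limit of 3 counts). Adgrb3 had 0 counts in the libraries labelled STAT6 and 1, 1 and 0 in those labelled Mock. Adgrg6 had 2, 1 and 3 counts against 0, 0 and 2, a ratio of 3.66 with an exact 95% interval of 0.654 to 37.1. No difference in these 3 genes was detectable at this depth. The listed Schwann cell markers, several of which pigment cells share by lineage, summed to 480.5 to 484 CPM in the libraries labelled STAT6 and 725 to 755 CPM in those labelled Mock, mostly from Mbp.

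The rest of the family was mostly undetected. Of 20 other adhesion receptor genes 6 passed the low-count filter, 10 had a few counts, at most 3 in any library, and 4 (Adgre1, Adgre4, Adgrg2 and Adgrg7) had 0 in all 6 libraries. All 6 tested genes changed (72.6% of all tested genes did), 5 higher and 1 lower. Their median log2 fold change was 1.37, against -0.00 over all tested genes. Of the 5, Adgrg3 and Celsr1 passed the filter through the libraries labelled STAT6 alone, so the count and median are no support for a common direction. With a filter of 1 CPM in 3 libraries 5 were tested and 4 were higher, since Celsr1 was no longer among them.

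Adgrg3, or GPR97, a receptor known from leukocytes, had 47, 34 and 42 counts in the libraries labelled STAT6 and 2, 3 and 5 in those labelled Mock. The fitted log2 fold change was 3.85 (SE 0.36), with a count ratio of 15.0 (exact 95% interval 7.89 to 32.1). The Celsr genes encode large cadherin-type members that orient cells in planar polarity. Celsr1 had 29, 12 and 15 counts against 0, 2 and 3 (log2 fold change 3.66, SE 0.55). Like Adgra1, Adgrg3 and Celsr1 passed the low-count filter through the STAT6-labelled libraries alone and had to differ, so no p-value is given for them. Celsr2, the most counted of the 3, went the other way, at 14.0 ± 1.47 CPM in the libraries labelled STAT6 and 27.8 ± 3.58 CPM in those labelled Mock (log2 fold change -0.98, SE 0.10, edgeR adjusted p = 1.38e-06). Celsr3 was higher, at 2.64 ± 0.343 against 1.18 ± 0.237 CPM (log2 fold change 1.18). Adgrf2 and Adgrf4, orphan receptors of the F group, rose by 1.47 and 1.28 on the log2 scale, Adgrf2 from 2.19 ± 0.176 to 6.03 ± 0.604 CPM and Adgrf4 from 0.626 ± 0.141 to 1.54 ± 0.291 CPM.

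**Figure D3:**
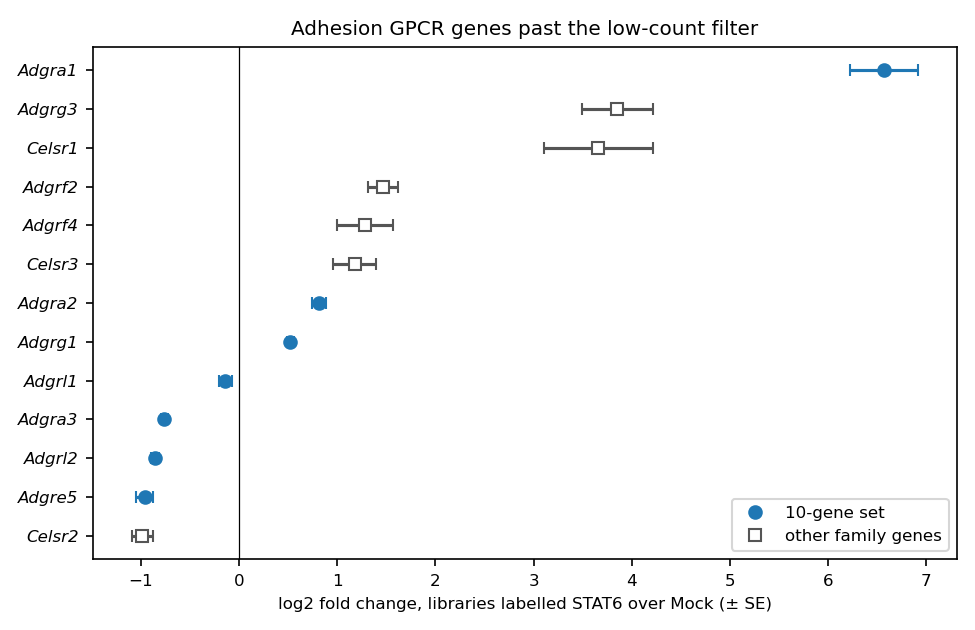
Log2 fold change (x axis, libraries labelled STAT6 over Mock, ± SE of the edgeR fit) of the 13 adhesion receptor genes that passed the low-count filter, filled circles for genes of the 10-gene set and open squares for other family genes. Adgra1 lies farthest to the right at 6.57, and Celsr2 farthest to the left at -0.98.

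Genes of ligands and surface partners were read from a list of 44, of which 25 passed the filter. Of these 19 were higher and 4 lower, or 92% past the threshold where 72.6% of all tested genes passed. The median log2 fold change was 0.54, against -0.00 over all tested genes. The 19 include Tenm2, which passed the low-count filter through the STAT6-labelled libraries alone and had to differ. The count and median are therefore no support for a common direction. The count higher was 17 to 19 over the 15 other settings. The 4 lower genes were Tenm4, Flrt3, Unc5c and Fzd4, and of these Fzd4 was named after its values were seen. Lamc1 and Nrxn2 did not pass.

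Of the latrophilin ligands that passed the filter, Tenm4 and Flrt3 were lower, Tenm2 was higher, and Nrxn2, a neurexin gene, was not past the threshold (-0.27, edgeR adjusted p = 0.213). The teneurin gene Tenm4 stood at 4.62, 4.23 and 3.19 CPM in the libraries labelled STAT6 against 32.3, 34.5 and 31.4 CPM (log2 fold change -3.02, SE 0.09, adjusted p = 7.65e-26, edgeR). Flrt3 stood at 11.7, 12.3 and 10.2 against 24.4, 24.8 and 23.5 CPM (log2 fold change -1.09, SE 0.07, edgeR adjusted p = 1.4e-15). In both genes the groups were apart, on the same side as Adgrl2.

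Tenm2 went the other way at a low level, with 115 counts over the libraries labelled STAT6 against 16 (log2 fold change 3.11, SE 0.34). It passed the low-count filter through the STAT6-labelled libraries alone and had to differ, so no p-value is given. Tenm1 had 1 count in all 6 libraries together, and Tenm3, Flrt1 and Flrt2 did not pass the filter. Netrin receptors of the UNC5 family also bind FLRT proteins. Unc5c stood at 102 ± 1.26 against 251 ± 17.4 CPM (log2 fold change -1.30), while Unc5b, named after its values were seen, stood at 27.4 ± 1.15 against 4.0 ± 1.10 CPM (2.74).

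Of the listed partners of Adgrg1, Cd9, Cd81 and Tgm2 were higher, where 35.8% of all tested genes were called higher. The tetraspanin genes Cd9 and Cd81 rose by 0.83 (SE 0.04, edgeR adjusted p = 4.58e-20) and 0.81 (SE 0.03, edgeR adjusted p = 1.7e-21) on the log2 scale, Cd81 from 167 ± 7.48 to 293 ± 5.60 CPM. Tgm2, which encodes transglutaminase 2, stood at 2.89 ± 0.279 against 0.774 ± 0.229 CPM (log2 fold change 1.89, SE 0.24, edgeR adjusted p = 7.84e-09). Col3a1, the collagen III ligand, had 3, 0 and 2 counts against 0, 0 and 1 and was not tested.

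Of the listed ligands and partners of Adgre5, Cd55 and Thy1 were close to undetected, and the integrin genes were higher. Cd55 had 0 counts in all 6 libraries and Thy1 had 1 count over all 6. Itgav (log2 fold change 0.79) and Itga5 (0.59), integrin genes named after their values were seen, were higher. The integrin genes Itgb3 and Itgb1 had the smallest adjusted p of the whole list. Itgb3 stood at 126 ± 2.67 against 16.8 ± 0.180 CPM (log2 fold change 2.90, SE 0.05, edgeR adjusted p = 3.86e-34), and Itgb1 at 1440 ± 10.2 against 572 ± 5.42 CPM (1.33, SE 0.03, edgeR adjusted p = 4.29e-31).

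For Adgra2, Reck, its membrane-anchored partner, was higher at 19.5 ± 0.154 against 14.3 ± 1.38 CPM (log2 fold change 0.45, SE 0.07, edgeR adjusted p = 1.22e-06). The ligand genes Wnt7a and Wnt7b had at most 3 counts in any library. Of the Wnt receptors in the list, named after their values were seen, Fzd4 was lower (-1.04) and Lrp5 higher (0.50). Lrp6 was called higher by 0.10, but its groups overlapped and 5 of 14 other settings lost the call. Among ligands of Adgrb3, C1ql1 and C1ql2 had 0 counts, C1ql4 had at most 2 in a library, and C1ql3 was higher by 0.54 (edgeR adjusted p = 0.0253), a call that 7 of 14 other settings lost, at adjusted p-values from 0.0113 to 0.167 over all 14. Among ligands of Adgrg6, also named after their values were seen, Prnp, the prion protein gene, was higher (0.99), and so were the collagen IV genes Col4a1 (0.44) and Col4a2 (0.52). Lama2, the laminin chain that Adgrg6 binds, had at most 5 counts in a library. Of the other laminin chains in the list, Lamb1 was higher, with 499 counts against 51 (3.56), and Lamc1 was not past the threshold (-0.07).

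**Figure D4:**
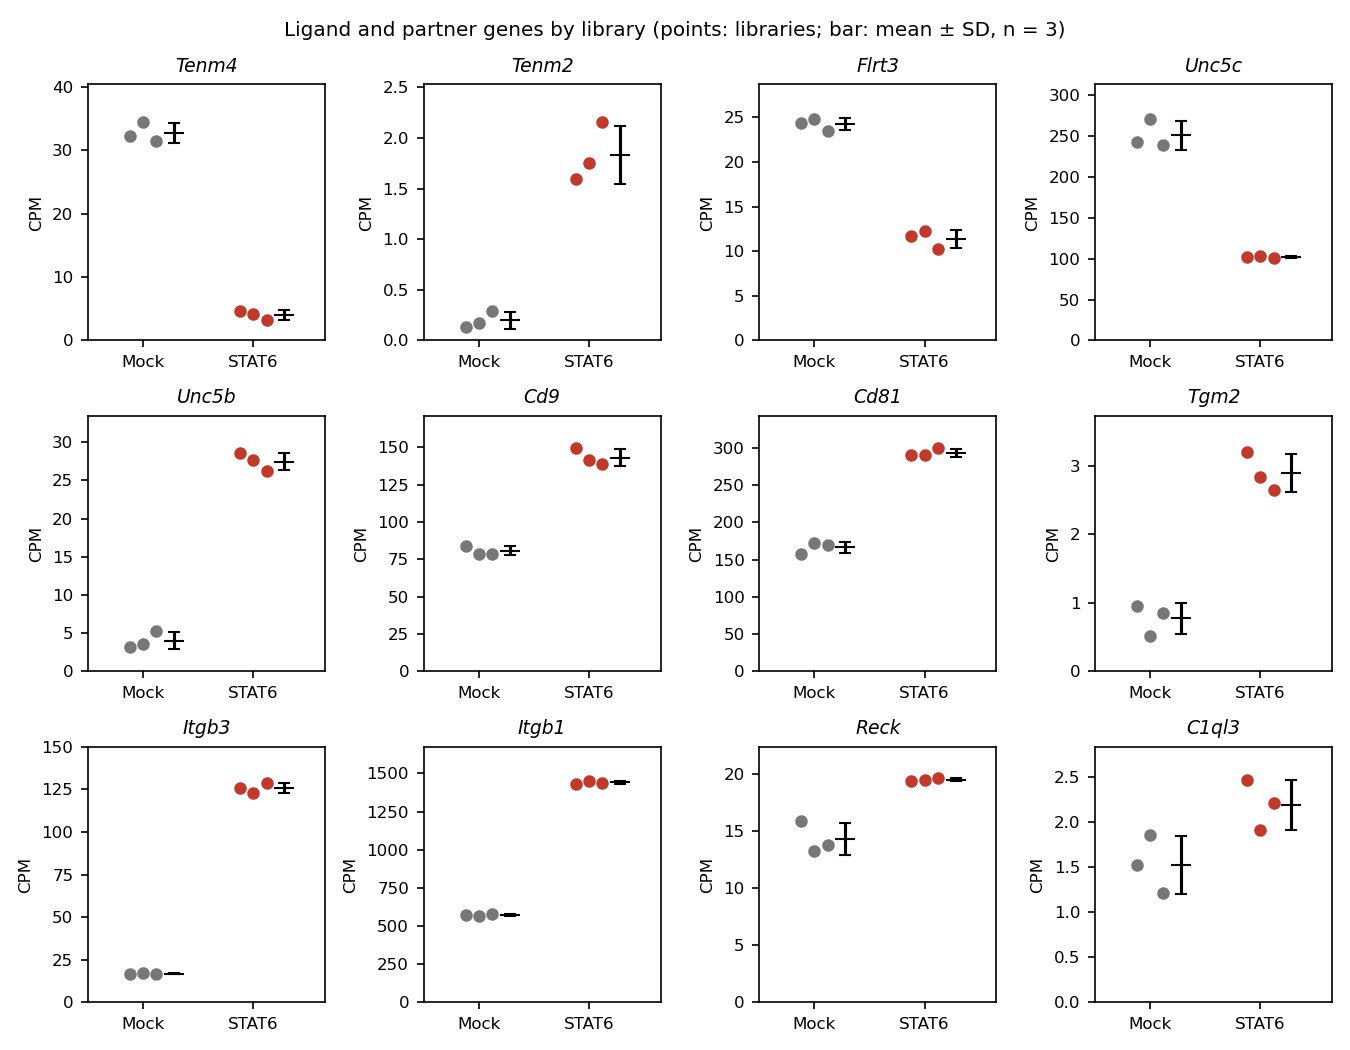
CPM (y axis) of 12 ligand and partner genes in each library labelled Mock (grey) and STAT6 (red), with mean ± SD beside the points (n = 3). Tenm4, Flrt3 and Unc5c are lower in all 3 libraries labelled STAT6, and the other 9 genes are higher in all 3.

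G proteins and effectors downstream of these receptors shifted mostly by small amounts. Of 35 listed genes 30 passed the filter, and 17 were higher, 10 lower and 3 (Arhgef1, Arhgef12 and Grk2) not past the threshold, which is 90% called where 72.6% of all tested genes were. Rac1, counted among the higher at 0.07, lost its direction with library totals alone (-0.00). The median log2 fold change was 0.21, against -0.00 over all tested genes, and 3 of the 30 changed at least 2-fold. Of these 3, Gna15 and Gna14 passed the low-count filter only through the group where they were high and had to differ. The counts and median are therefore no support for a common change.

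The alpha subunits that couple adhesion receptors to RhoA were slightly lower. Gna12 stood at 30.3 ± 1.39 against 34.8 ± 0.518 CPM (log2 fold change -0.20, SE 0.05, edgeR adjusted p = 0.00132). Gna13 stood at 63.8 ± 3.08 against 77.1 ± 4.98 CPM (log2 fold change -0.27, SE 0.05, edgeR adjusted p = 5.03e-06). Arhgef11, an exchange factor for RhoA that these subunits activate, was lower (-0.49, SE 0.04, edgeR adjusted p = 2.02e-13). The other listed exchange factor genes, Arhgef1 (0.03) and Arhgef12 (0.04), were not past the threshold.

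Downstream of Gna12 and Gna13, Rhob, a relative of RhoA, stood at 126 ± 6.76 against 26.6 ± 0.102 CPM (log2 fold change 2.25, SE 0.05, edgeR adjusted p = 6.53e-31). Its coefficient of variation in Mock was 0.384% where counting alone gives 3.83%, so that SD understates the error. The gene of the kinase effector Rock2 rose by 0.42 on the log2 scale. Rhoa itself (0.34), Rhoc (0.54) and the kinase gene Rock1 (0.66), named after their values were seen, were higher too. Other alpha and beta subunits were divided. Gnao1 (0.84), Gnb4 (0.82) and Gnaq (0.51), whose product is found in complexes of Adgrg1 with tetraspanins, were higher, and so, named after their values were seen, were Gnai2 (0.29), Gna11 (0.27), Gnb5 (0.26) and Gnas (0.21). Gnai3 (-0.33), Gnb2 (-0.13) and Gnb1 (-0.10), named in the same way, were lower. Gna15 and Gna14, also named afterwards, had 133 counts against 12 (3.71) and 18 against 56 (-1.33). Each passed the low-count filter only through the group where it was high, so that it had to differ. Receptor desensitisation genes, likewise named afterwards, were divided, with Grk5 (0.71) and Arrb1 (0.34) higher and Grk6 (-0.70) and Arrb2 (-0.67) lower.

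**Figure D5:**
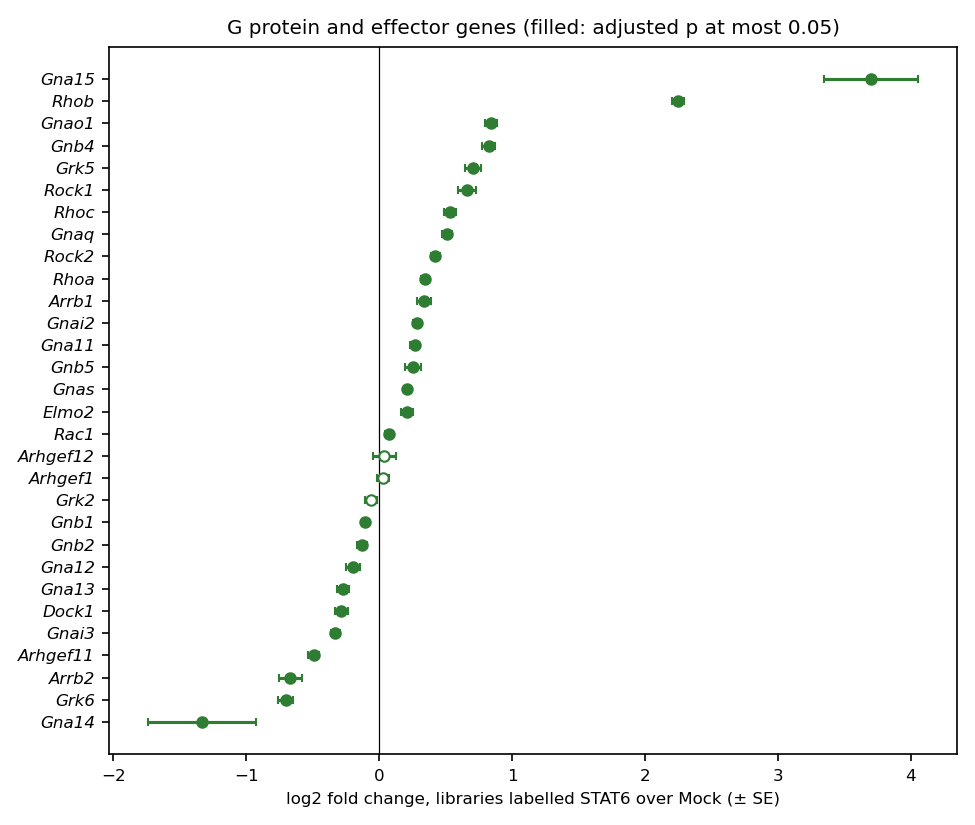
Log2 fold change (x axis, libraries labelled STAT6 over Mock, ± SE of the edgeR fit) of the 30 tested G protein and effector genes, filled where the adjusted p was at most 0.05. Gna15 (3.71) and Rhob (2.25) lie apart on the right and Gna14 (-1.33) on the left, and the other 27 lie within 1 of 0. Gna15 and Gna14 passed the low-count filter only through the group where they were high.

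Markers of other cell types were also read in all libraries, and their part in the results above was not tested. Endothelial markers, of interest beside Adgra2, summed to 0.588 to 1.03 CPM in the libraries labelled STAT6 and 0.0431 to 0.262 CPM in those labelled Mock. Most of this was Pecam1, with 45 counts against 8 (ratio 6.86, exact 95% interval 3.20 to 16.9), while Cdh5 and Emcn had 0 counts throughout. Fibroblast markers summed to 78.5 to 84.9 CPM in the libraries labelled STAT6 and 18.7 to 20.7 CPM in those labelled Mock, where Col1a1 was higher and Col1a2 lower, and Dcn and Lum had 1 count each over all 6 libraries. Neuron markers summed to 229.5 to 239 CPM against 59.5 to 61.7 CPM, nearly all from Tubb3.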

How the data were processed

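The authors deposited 1 file per library with whole-number counts per gene symbol. The build GRCh37 and the tools STAR, Salmon, FastQC and edgeR are recorded in the submitters' processing notes. Gene assignment and strand setting were not given in the sources used here, so overlapping and antisense genes could not be told apart, and no sequence or coordinate is printed. Per the labels, libraries came from a stranded mRNA kit. The deposited counts were fitted in R 4.3.3 with edgeR 4.0.16 (filterByExpr, TMM, glmQLFit with robust = TRUE, 2-sided glmQLFTest, group as the only term, Benjamini-Hochberg adjustment over 12938 genes, threshold 0.05). The fit was tested on simulated data. Count ratios have exact conditional 95% intervals, and intervals and the limit of 3 counts cover counting error only. Some SDs lay below counting error and understate the error, as for Rhob and Itgb3 in Mock and Reck in the STAT6-labelled libraries. Replicates differed by more than counting noise (median chi-square 1.49 to 2.63 times). The genes and lists were chosen with earlier results of these data known. Named were all 10 genes, tested family genes, the 6 ligand or G protein genes with the smallest adjusted p, known ligands, and the 2 genes on either side of Adgra1 by rank, of which 1 is not reported here. Alternatives were other scalings and filters, DESeq2 1.42.0, limma 3.58.1 (voom), the replicate number as a block, each library left out, and a threshold of 0.01.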

Additional observations from a re-analysis of the deposited data

How the results depend on the processing

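The number of called genes among the 10 was 6 or 7 over 15 alternatives, the seventh being Adgrl1, and it was 5 or 6 for the other family genes, 21 to 24 for ligands and partners and 26 or 27 for G proteins and effectors. With each library left out in turn these ranges were 6 to 7, 6 to 6, 22 to 23 and 26 to 27, and over all genes 9042 to 9476 were called. Adgra1, Adgra2, Adgra3, Adgre5, Adgrg1 and Adgrl2 kept their sign in all 14 refits, which is no support, since this comparison chose the set. With the replicate number as a block 7 of the 10 genes were called, against 6 without it, and 9422 genes in all against 9399. The labels do not say that a number marks shared cultures, deviations of same-numbered libraries correlated at 0.018 to 0.096, and 5 of 6 libraries correlated best with their own number, so the block is no firmer than the fit without it. Near 0, Arhgef1 (log2 fold change -0.0430 with library totals alone, and -0.00273 to 0.0462 with a library left out, negative without STAT6 replicate 3), Arhgef12 (-0.0355 with library totals alone, and -0.00760 to 0.110 with a library left out, negative without STAT6 replicate 3 or Mock replicate 3) and Rac1 (-0.00345 with library totals alone) changed sign, and the cause was not tested. Low counts limit Adgra1, Adgrg3 and Celsr1, whose size is known only within their intervals, and leave Adgrb2, Adgrb3 and Adgrg6 without a comparison.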

Other observations

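Several family genes lie side by side in the human genome, and their values were set beside each other after they were seen. In the order of protein-coding genes of the human assembly GRCh38.p14, the counterpart of Adgrg1 lies between those of Adgrg5 and Adgrg3. Adgrg3 (log2 fold change 3.85) passed the low-count filter through the STAT6-labelled libraries alone and had to differ. Adgrg1 was higher by 0.52, and Adgrg5 had 1 count in the STAT6-labelled libraries and 0 in the Mock-labelled ones. Adgrl1 (-0.14) and Adgre5 (-0.96) are next to each other in that order, and Ddx39a, an RNA helicase gene on the other side of Adgre5, was also lower (-0.70). Adgrl2 lies beside Adgrl4, which had 0 counts in the STAT6-labelled libraries and 1 in the Mock-labelled ones. Neighbours outside the family went both with and against the member beside them. Beside Adgra1 were Cfap46, a cilium gene (1.40), and Kndc1, with 3 counts against 0. Beside Adgra2 (0.81) were Plpbp (0.21) and Brf2 (-0.25), and beside Adgra3 (-0.76) were Ppargc1a, a regulator of mitochondrial biogenesis (-0.85), and Kcnip4, with 26 counts against 9. Asf1b (-0.22) lay beside Adgrl1 and Ttll7 (-0.12, not past the threshold) beside Adgrl2. Next to the members that were close to undetected were Lmbrd1 (0.76) for Adgrb3, Vta1 (0.84) and Hivep2 (0.25) for Adgrg6, and Col16a1 (0.08, not past the threshold) and Spocd1 (7 counts against 0) for Adgrb2. The order in mouse was not analysed here.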
